A study of Mus musculus with 5 samples.

Results

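The genes that encode the Notch receptors (Notch1, Notch2, Notch3), their ligands (Dll1, Dll4, Jag1, Jag2) and the Fringe sugar transferases (Lfng, Mfng, Rfng) were followed in mouse colon spheroids. These 10 genes were taken by symbol from tables of 32793 gene rows, and all 10 had a row. Spheroids are three-dimensional epithelial cultures, and RNA was sequenced in bulk from 2 mutant and 3 wild-type cultures. The mutant libraries, titled RA, carry the alleles Notch1DD and Notch2DD, which encode receptors deficient in dimerization (this genotype is NDD below). The control libraries are labelled WT, and both genotypes share a mixed background in which C57Bl6 outweighs FVB. The labels give neither the age of the mice nor whether each culture came from a separate mouse, so p-values measure only the spread between these samples. The question behind the comparison, from the study's title, is how dimerization of Notch bears on the homeostasis of the intestine.

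Notch signalling passes between touching cells. A Delta-like or Jagged ligand on one cell pulls on a Notch receptor on its neighbour, the receptor is cleaved, and its intracellular domain enters the nucleus, where it joins the DNA-binding protein RBPJ. On some paired RBPJ sites 2 such domains act together as a dimer, which is the contact that the mutant alleles lack. Fringe enzymes extend the fucose that sits on the receptors' EGF repeats and thereby tune how well a receptor answers to Delta-like or Jagged ligands. In the intestine Notch1 and Notch2 hold crypt progenitors out of the secretory lineages, while Dll1 and Dll4 are known from secretory precursors and their neighbours.

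Total counts ran from 19192389 to 23064000 per library, and 13501 genes were tested. The NDD libraries resembled each other less (Spearman correlation 0.966 over log2 CPM, the count scaled to the library total) than any pair of WT libraries (0.984 to 0.987). NDD replicate 1 correlated more with each WT library (0.973 to 0.985) than with NDD replicate 2, which was at 0.939 to 0.966 with WT. On the first principal component NDD replicate 2 stood apart at -69.5, against -14.6 for NDD replicate 1. WT replicate 3 lay farthest on the other side, at 53.2 against 16.3 and 14.6 for WT replicates 1 and 2. Fold changes below are also given without NDD replicate 2. All 10 markers of colon epithelium were present, at a summed 14006 to 15647 TPM in NDD and 13738 to 14882 TPM in WT. Within that sum Krt20, a keratin of mature colonocytes, was at 56.6 and 114.19 TPM in NDD and at 32.51, 31.94 and 4.64 TPM in WT, with both NDD libraries above all WT libraries (edgeR adjusted p 0.440). TPM is a transcript level scaled for length and to the same sum in every library. Of the 10 endothelial markers, 9 had at most 10 counts in any library, with Kdr, Emcn, Cldn5 and Erg at 0. The same held for 9 of 10 fibroblast markers, with Lum, Dpt and Thy1 at 0, and for 7 of 10 immune markers, with Cd4 and Cd8a among those at 0. The immune markers summed to 3.07 and 4.21 TPM in NDD and to 4.90 to 7.97 TPM in WT. The part of mature colonocytes or immune cells in the values below was not tested.

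On the TPM scale, the 10 genes covered a wide range of levels, and their order was much the same in the genotypes. Rfng was the most abundant in every library, at 41.6 ± 10.8 TPM in NDD (SD, n = 2) and 47.4 ± 6.78 TPM in WT (SD, n = 3). In WT it was followed by Lfng, Jag2, Notch1, Notch2, Jag1, Dll4, Dll1, Notch3 and Mfng. Neighbours in that order whose ranges overlapped over the WT libraries were Lfng with Jag2, Notch2 with Jag1, and Dll4 with Dll1. The other 6 neighbouring pairs lay apart. In NDD the order was Rfng, Lfng, Jag2, Notch1, Jag1, Dll1, Notch2, Dll4, Notch3 and Mfng. Lfng overlapped with Jag2 there too, and Jag1, Dll1 and Notch2 each overlapped with the next gene in the order. In WT, Rfng lay at the 76.0th percentile of the tested genes, Notch1 at the 40.1st and Dll1 at the 21.3rd.

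**Figure D1:**
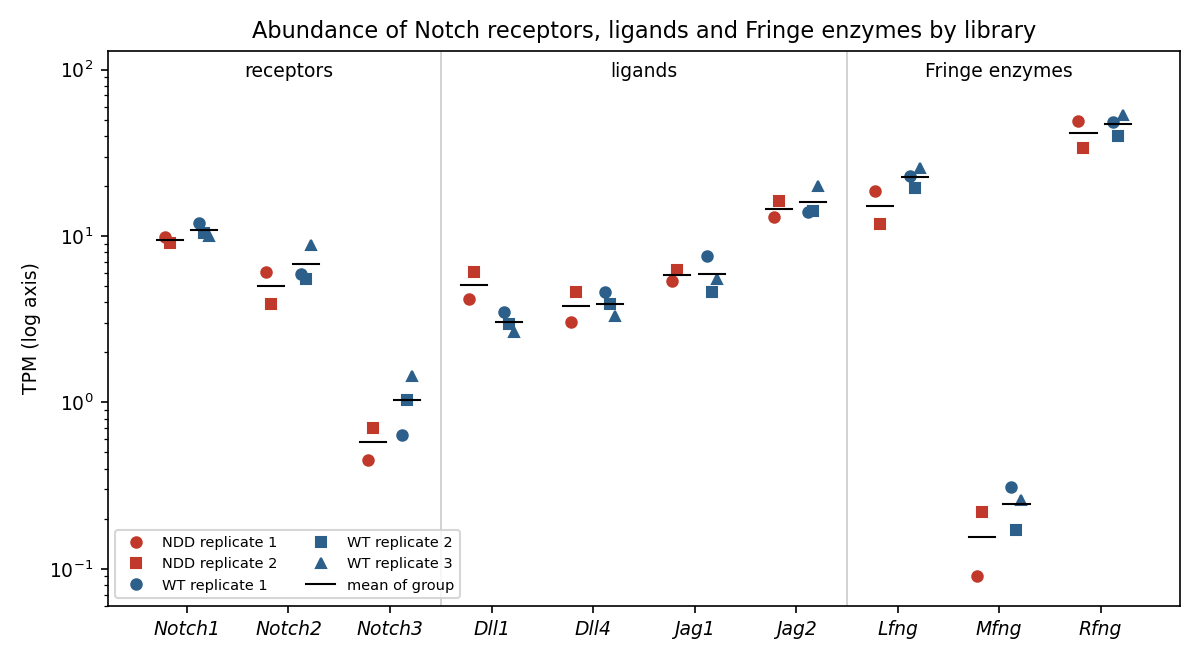
Level of each gene in each library on a log axis in TPM, with NDD in red and WT in blue, symbols for the replicates and a black line at the mean of each group. Rfng lies highest and Mfng lowest in every library, and the groups lie apart only for Notch1, Dll1 and Lfng.

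None of the 10 genes passed the test between genotypes, which was edgeR's quasi-likelihood fit over all tested genes with a threshold of 0.05 on the adjusted p. Of all tested genes 0.0889% passed it, 0.0667% higher and 0.0222% lower in NDD. Of the 10 genes, 9 had enough counts to be tested, since Mfng did not pass the filter on low counts. DESeq2 also called 0 of the 9, against 357 of all 13501 tested genes. An unadjusted p under 0.05 was found for 2 of the 9, Dll1 (higher in NDD) and Lfng (lower in NDD), against 11.2% of all tested genes, 6.49% higher and 4.68% lower. In edgeR that count of genes was 0 without WT replicate 2, against 1000 of 13372 tested genes. It was 0 without WT replicate 3 (against 687 of 13358) and 0 with a block for the replicate number (against 942 of 13501). Without WT replicate 1 it was 2 (Dll1 and Notch3), against 1211 of 13327. Fits without an NDD library keep only 1 mutant library and are left out of these counts. In CPM the genotypes lay apart for 3 of the 9, with NDD above WT for Dll1 and below WT for Lfng and Notch1. That held for 32.0% of all tested genes, 15.8% above and 16.2% below, so the share among the 9 lies near the background. The log2 fold change was below 0 for 7 of the 9, against 50.5% of all tested genes. Its median was -0.17 over the 9 genes and -0.0047 over all tested genes. The labels do not state how many cells or which cell types each culture held, and in bulk RNA fewer cells of a type cannot be told apart from less RNA per cell.

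**Figure D2:**
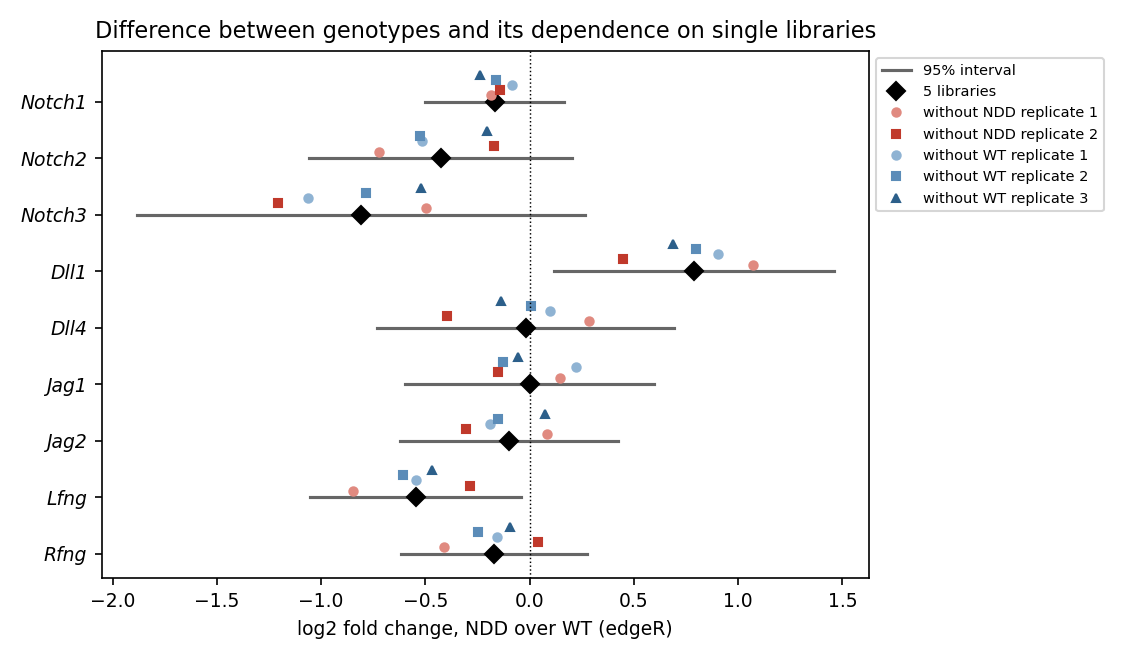
Log2 fold change of NDD over WT for the 9 tested genes from edgeR, with its 95% interval as a line and coloured symbols for the value when 1 library is left out. The interval of Dll1 lies above 0 and that of Lfng below 0 before adjustment, while Dll4, Jag1, Jag2 and Rfng have values on both sides of 0 depending on the library left out.

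Among the receptors, Notch1 was the most abundant. Notch1 (ENSMUSG00000026923.15, chr2:26457903-26516663, minus strand, GRCm38) was at 9.91 and 9.07 TPM in NDD and at 12, 10.48 and 9.94 TPM in WT. Both NDD libraries lay below all WT libraries, by a narrow margin between NDD replicate 1 and WT replicate 3. Its log2 fold change in edgeR was -0.17 (SE 0.14, 95% interval -0.50 to 0.17, edgeR adjusted p 0.584), so a fall by more than 0.50 on the log2 scale lies outside the interval. It was -0.14 without NDD replicate 2 and -0.09 without WT replicate 1. The tables are per gene and do not separate transcripts of the mutant allele from those of the normal allele.

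Notch2, the other receptor with a mutant allele (ENSMUSG00000027878.11, chr3:98013527-98150361, plus strand, GRCm38), was at 6.06 and 3.89 TPM in NDD and at 5.90, 5.55 and 8.84 TPM in WT. NDD replicate 2 was the lowest and WT replicate 3 the highest, and NDD replicate 1 lay among the WT libraries. Over the 5 libraries the log2 fold change was -0.43 (SE 0.26, 95% interval -1.06 to 0.20, edgeR adjusted p 0.505). It was -0.17 when NDD replicate 2 was left out, -0.72 for NDD replicate 1 and -0.20 for WT replicate 3. With the replicate block in edgeR the value for Notch2 was -0.23.

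Notch3 is a receptor best known from vascular smooth muscle and is itself a Notch target in several tissues. Notch3 (ENSMUSG00000038146.8, chr17:32120820-32166852, minus strand, GRCm38) was at 0.45 and 0.70 TPM in NDD and at 0.64, 1.04 and 1.44 TPM in WT. These levels rest on 49 and 76 counts in NDD and on 59, 116 and 159 counts in WT. WT replicate 1 lay between the NDD libraries, so the groups overlapped. The exact 95% Poisson intervals of the counts, which cover counting error only, were 36.3 to 64.8 for NDD replicate 1 and 135 to 186 for WT replicate 3. In the fit Notch3 had a log2 fold change of -0.81 (SE 0.44, 95% interval -1.88 to 0.26, edgeR adjusted p 0.482), the lowest value among the 9 tested genes in this fit. On log2(TPM + 1) in limma it was -0.36, where Lfng (-0.57) and Notch2 (-0.38) were lower, and with the replicate block in edgeR it was -0.51. Left out in turn, NDD replicates 2 and 1 gave -1.21 and -0.50, and WT replicates 1 and 3 gave -1.06 and -0.52. Markers of smooth muscle and pericytes summed to 6.51 and 13.1 TPM in NDD and to 3.77 to 5.28 TPM in WT, with 6 of 8 at 10 counts or fewer in every library and Cnn1 at 0. Their part in the Notch3 value was not tested.

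Together the receptors held 16.4 and 13.7 TPM in NDD and 18.5, 17.1 and 20.2 TPM in WT. Both NDD totals lay below the WT totals, with a difference of -3.57 TPM between the means. It was -2.19 TPM without NDD replicate 2 and -4.95 TPM without NDD replicate 1. The exact two-sided permutation test over libraries gave p = 0.2 (adjusted over 3 classes 0.6), and 0.2 is the smallest p that this test, which doubles the smaller one-sided p, can give with 2 libraries against 3. Within that total, Notch1 made up 60.4% and 66.4% in NDD and 64.7%, 61.4% and 49.2% in WT. Notch2 made up 36.9% and 28.5% in NDD and 31.8%, 32.5% and 43.7% in WT. The share of Notch3 was 2.74% and 5.12% in NDD and 3.45%, 6.09% and 7.12% in WT. The shares of all 3 receptors overlapped between genotypes (exact permutation p 0.4 to 0.8), and WT replicate 3 had the lowest share of Notch1 and the highest share of Notch2.

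Jag2 was the most abundant ligand in every library. Jag2 (ENSMUSG00000002799.6, chr12:112907819-112929776, minus strand, GRCm38), a Jagged-type ligand, was at 13.1 and 16.2 TPM in NDD and at 13.9, 14.2 and 19.95 TPM in WT. The groups overlapped, with WT replicate 3 the highest. Jag2 had a log2 fold change of -0.10 (SE 0.22, 95% interval -0.62 to 0.42, edgeR adjusted p 0.835). Its direction turned with single libraries, from -0.30 without NDD replicate 2 to 0.084 without NDD replicate 1 and 0.07 without WT replicate 3.

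Jag1, the other Jagged ligand (ENSMUSG00000027276.7, chr2:137081456-137116644, minus strand, GRCm38), was at 5.38 and 6.22 TPM in NDD and at 7.61, 4.61 and 5.53 TPM in WT. The NDD values lay inside the WT range. The fitted difference was 0.0012 on the log2 scale (SE 0.25, 95% interval -0.60 to 0.60, edgeR adjusted p 0.998). Leaving out NDD replicate 2 gave -0.15 and NDD replicate 1 gave 0.14, while WT replicates 1, 2 and 3 gave 0.22, -0.13 and -0.06.

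Dll4, a Delta-like ligand that also acts in blood vessels (ENSMUSG00000027314.6, chr2:119325784-119335962, plus strand, GRCm38), was at 3.03 and 4.58 TPM in NDD and at 4.58, 3.90 and 3.31 TPM in WT. The groups overlapped, and NDD replicate 2 equalled WT replicate 1. Dll4 differed by -0.019 on the log2 scale (SE 0.29, 95% interval -0.73 to 0.69, edgeR adjusted p 0.979), by -0.40 without NDD replicate 2, by 0.29 without NDD replicate 1 and by 0.10 without WT replicate 1.

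Dll1 was the gene of the 10 with the highest fold in NDD. Dll1 (ENSMUSG00000014773.13, chr17:15367354-15376872, minus strand, GRCm38) is a Delta-like ligand known from secretory precursors and their neighbours. It was at 4.17 and 6.05 TPM in NDD and at 3.50, 2.94 and 2.64 TPM in WT. These levels rest on 187 and 273 counts in NDD and on 135, 137 and 121 counts in WT. Both NDD libraries lay above all WT libraries, and NDD replicate 2 was the highest. NDD exceeded WT by 0.79 on the log2 scale (SE 0.28, 95% interval 0.12 to 1.46), a 1.73-fold difference, with an unadjusted p of 0.0278 and an edgeR adjusted p of 0.437. Without NDD replicate 2 it was 0.45 (edgeR adjusted p 0.861), and without NDD replicate 1 it was 1.07 (edgeR adjusted p 0.0605). Adjusted p-values ranged from 0.233 to 0.768 over the alternatives that kept all 5 libraries (edgeR, DESeq2 and limma), and the exact permutation test gave p = 0.2.

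Dll1 and Dll4 are both known from secretory precursors and their neighbours. Dll4 differed by -0.019 on the log2 scale, with overlapping groups. Genes of the secretory lineage are set here beside Dll1, which had the higher fold in NDD. Of 14 such genes 12 were tested, and 0 had an adjusted p under 0.05 with edgeR or DESeq2. Of all tested genes, edgeR called 0.0889% and DESeq2 called 357 of 13501. An unadjusted p under 0.05 was found for 2, Clca1 and Agr2, both with NDD above WT, against 6.49% of all tested genes. Fold changes were above 0 on the log2 scale for 11 of the 12, against 49.5% of all tested genes, with a median of 0.31. Chga was the gene below 0, at -0.43 (SE 0.29, edgeR adjusted p 0.529), and at -0.67 to -0.19 when any 1 library was left out. Dclk1 and Trpm5 were not tested. Dclk1 had 1 and 0 counts in NDD and 12, 3 and 9 counts in WT, and Trpm5 had 1 to 5. Leaving out NDD replicate 2 brought the median to -0.04, NDD replicate 1 to 0.46, WT replicate 1 to 0.48 and WT replicate 3 to 0.17. Without NDD replicate 2, Atoh1, Spdef, Gfi1, Neurod1, Muc2 and Fcgbp turned below 0, as did Neurog3 and Zg16 without NDD replicate 1. Atoh1, the transcription factor that specifies secretory cells, had 266 and 635 counts in NDD and 254, 376 and 166 counts in WT (log2 fold change 0.75, SE 0.48, edgeR adjusted p 0.515). Its direction turned without NDD replicate 2, at -0.06, while NDD replicate 1 left out gave 1.27 and WT replicate 3 gave 0.48. Clca1, a goblet cell product, averaged 422 ± 78.1 CPM in the mutants (SD, n = 2) and 222 ± 74.5 CPM in the controls (SD, n = 3), or 0.93 on the log2 scale (SE 0.31, edgeR adjusted p 0.429) and 0.74 without NDD replicate 2. Agr2, a folding enzyme of mucin-secreting cells, averaged 217 ± 46.0 CPM in the mutants and 150 ± 18.4 CPM in the controls, or 0.53 on the log2 scale (SE 0.18, edgeR adjusted p 0.435) and 0.32 without NDD replicate 2. Tff3, the most abundant gene of the list and a goblet peptide, differed by 0.14 on the log2 scale (SE 0.17, edgeR adjusted p 0.703) and by 0.17 without NDD replicate 2, by 0.026 without WT replicate 1 and by 0.30 without WT replicate 2. In TPM, NDD replicate 2, the library highest in Dll1, was also the highest for 7 of the 12, among them Atoh1, Clca1 and Agr2, against 27.4% of all tested genes. NDD replicate 1 was the highest for 2, WT replicate 1 for 2 (among them Muc2) and WT replicate 2 for 1 (Tff3). Muc2, the main goblet cell mucin, was at 64.1 and 90.5 TPM in NDD and at 147.71, 35.7 and 22.5 TPM in WT, so its groups overlapped (log2 fold change 0.21, SE 0.70). For Muc2 the value ranged from -0.20 without WT replicate 3 to 1.26 without WT replicate 1, and was -0.03 without NDD replicate 2. Muc2 is named here after its values were seen, and the part of secretory cells in the Dll1 value was not tested.

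The ligands together held 25.7 and 33.0 TPM in NDD and 29.6, 25.7 and 31.4 TPM in WT, with overlapping groups (exact permutation p 0.8). Jag2 made up 51.0% and 49.0% of that total in NDD and 47.0%, 55.4% and 63.5% in WT. Dll1 made up 16.2% and 18.3% in NDD and 11.8%, 11.5% and 8.40% in WT. Its share was thus 6.72 percentage points higher in NDD, with no overlap between genotypes, and 5.64 to 7.76 points higher when any 1 library was left out. The exact two-sided permutation test gave p = 0.2, the smallest it can give, and 0.667 after adjustment over 10 shares. Dll4 made up 10.5% to 15.5% and Jag1 17.6% to 25.7% of the ligand total over the 5 libraries, each with overlapping groups.

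**Figure D3:**
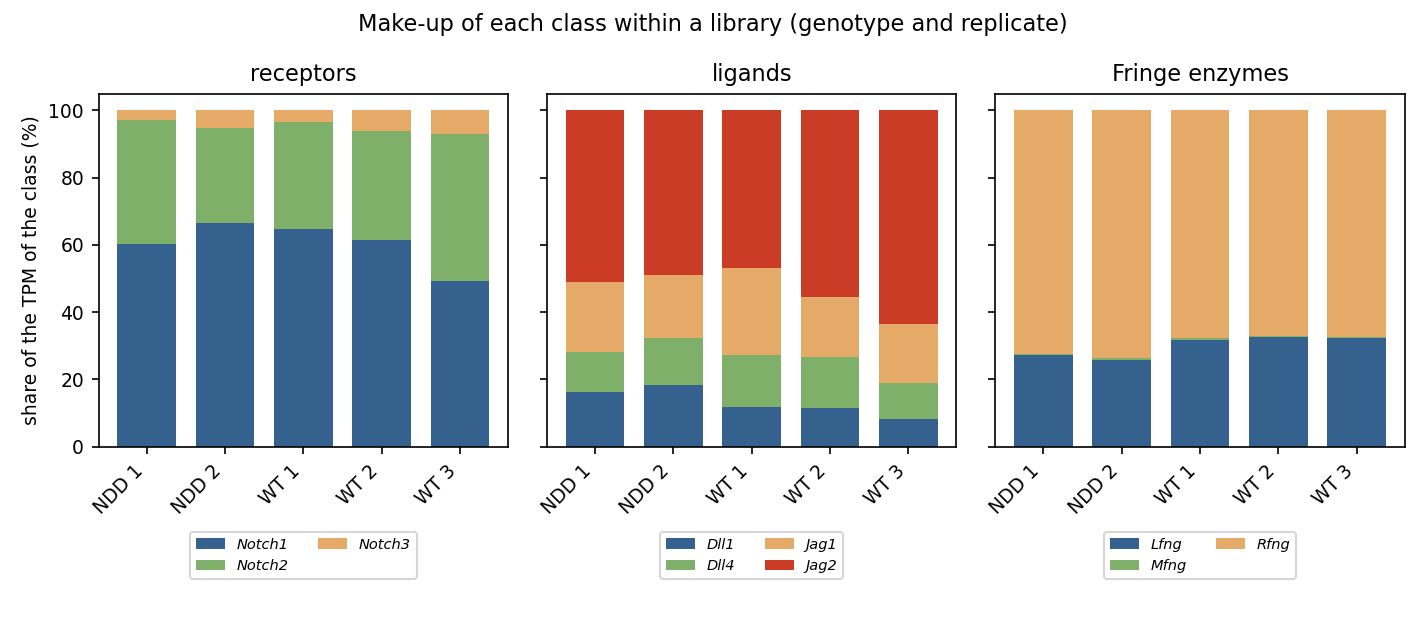
Share of each gene in the summed TPM of its class, in percent, with 1 stacked bar per library. Within the ligands the Dll1 segment is larger in both NDD bars (16.2% and 18.3%) than in the WT bars, and within the Fringe enzymes the Lfng segment is smaller in both NDD bars (27.3% and 25.8%) than in the WT bars.

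Rfng led the Fringe enzymes in every library. Rfng (ENSMUSG00000025158.7, chr11:120780746-120784207, minus strand, GRCm38), Radical fringe, was at 49.2 and 33.9 TPM in NDD and at 48.7, 40.05 and 53.4 TPM in WT. NDD replicate 1 lay among the WT libraries and NDD replicate 2 below them. Rfng differed by -0.17 on the log2 scale (SE 0.18, 95% interval -0.62 to 0.27, edgeR adjusted p 0.665), a value of 0.040 without NDD replicate 2 and of -0.41 without NDD replicate 1.

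Lfng, Lunatic fringe, is a Fringe enzyme whose transcription is under Notch control in the embryo. Lfng (ENSMUSG00000029570.5, chr5:140607320-140615545, plus strand, GRCm38) was at 18.6 and 11.85 TPM in NDD and at 22.9, 19.6 and 25.5 TPM in WT. Both NDD libraries lay below all WT libraries, and NDD replicate 2 was the lowest. In the fit this was a difference of -0.55 on the log2 scale (SE 0.21, 95% interval -1.05 to -0.04), a fold of 0.685, with an unadjusted p of 0.0383 and an edgeR adjusted p of 0.437. Without NDD replicate 2 it was -0.29 (edgeR adjusted p 0.845). Without NDD replicate 1 it was -0.85 (edgeR adjusted p 0.0447), in a fit that called 1207 of 14007 genes and that takes the lone NDD library to vary as the WT libraries do. Over the alternatives with all 5 libraries (edgeR, DESeq2 and limma) the adjusted p ranged from 0.312 to 0.741, and the exact permutation test gave p = 0.2.

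Mfng, Manic fringe, was near the limit of detection. Mfng (ENSMUSG00000018169.12, chr15:78755882-78773475, minus strand, GRCm38) had 2 and 5 counts in NDD and 6, 4 and 6 counts in WT, or 0.09 and 0.22 TPM in NDD and 0.17 to 0.31 TPM in WT. The exact 95% Poisson interval ran from 0.242 to 7.22 counts for NDD replicate 1 and from 2.20 to 13.1 counts for WT replicate 1. A difference between genotypes in Mfng was not detectable at this depth.

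The balance between Lfng and Rfng varied little within each genotype. Lfng made up 27.3% and 25.8% of the Fringe TPM in NDD and 31.8%, 32.7% and 32.2% in WT, a mean of 26.6 ± 1.11% (SD, n = 2) against 32.2 ± 0.481% (SD, n = 3). Rfng made up 72.5% and 73.8% in NDD and 67.8%, 67.0% and 67.5% in WT. Neither share overlapped between genotypes. NDD minus WT was -5.69 percentage points for Lfng, and -6.47 to -4.90 points when any 1 library was left out. The exact two-sided permutation test gave p = 0.2 for both shares, the smallest it can give, and 0.667 after adjustment over 10 shares. The Fringe total was 67.9 and 46.0 TPM in NDD and 71.9, 59.8 and 79.2 TPM in WT, with overlapping groups (exact permutation p 0.4). These shares add to a whole within each class, so a lower share of Lfng and a higher share of Rfng are not separate results.

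The 250 bases upstream of the RefSeq start sites (GRCm38.p6) are shown for Dll1 and Lfng, the genes with an unadjusted p under 0.05, to set these differences beside the letters that Notch-related factors read. Such windows were found for 9 of the 10 genes (10 windows, of which 2 belong to Dll1). Each was searched on both strands for TGGGAA, the core of the RBPJ site, and for CAGCTG, an E-box of the kind read by factors such as Atoh1. A paired arrangement was also searched, TGNGAA followed after 15 to 17 bases by TTCNCA, as at sites where dimers form. The Lfng stretch (chr5:140607091-140607319, plus strand) ends before the first annotated exon, and the Dll1 stretch (chr17:15376933-15377182, minus strand) belongs to the upstream start site. The bases that RefSeq places after that start were not found in the GENCODE M21 transcripts of Dll1. Those after the other Dll1 start were found there, and the window of that start held none of the motifs below. Capitals mark the matches, and a TGGGAA match on the opposite strand reads TTCCCA.
Lfng: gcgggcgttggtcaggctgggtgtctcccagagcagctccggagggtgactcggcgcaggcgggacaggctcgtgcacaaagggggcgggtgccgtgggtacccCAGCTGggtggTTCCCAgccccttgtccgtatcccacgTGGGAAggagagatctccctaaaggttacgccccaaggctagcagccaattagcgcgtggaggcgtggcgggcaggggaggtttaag
Dll1: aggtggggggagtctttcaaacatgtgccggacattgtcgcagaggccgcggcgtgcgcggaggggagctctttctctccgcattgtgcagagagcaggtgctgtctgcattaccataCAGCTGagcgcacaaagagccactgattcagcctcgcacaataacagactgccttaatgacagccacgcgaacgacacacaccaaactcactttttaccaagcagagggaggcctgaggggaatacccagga
TGGGAA was found in 1 of the 10 windows, that of Lfng, where it occurred on each strand, against 21.6% of 32851 promoter windows of all genes and 1.28% with a match on both strands. In Lfng, TTCCCA begins 135 bases and TGGGAA 108 bases before the start site, with 21 bases between them and in the opposite order to the paired arrangement. The paired arrangement was found in 0 of the 10 windows, against 0.116% of all windows. CAGCTG was found in 3 of the 10, at Lfng, Jag1 and the upstream start of Dll1, against 13% of all windows. The Jag1 match begins 82 bases before the RefSeq start and lies within the annotated Jag1 gene, outside the exon-free stretch of that window. These matches describe letters within 250 bases only, and the motifs were chosen after the values were seen.

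The other genes of the pathway were counted by role. No gene on these lists had an adjusted p under 0.05 with edgeR, DESeq2 or the fit with a replicate block. In edgeR 0.0889% of all tested genes did, and of 13501 tested genes DESeq2 called 357 and the block fit 33. At an unadjusted p under 0.05 the share of all tested genes was 11.2%, 6.49% higher and 4.68% lower in NDD, and the counts of 0 to 2 genes per list below are to be read against it. Of the other receptors and ligands, Notch4 and Dlk1 were tested. Notch4, a receptor best known from endothelium, was at 3.09 and 2.47 TPM in NDD and at 2.49, 3.26 and 3.24 TPM in WT (log2 fold change -0.10, SE 0.21, edgeR adjusted p 0.836). Its direction turned with the NDD library left out, to 0.088 without replicate 2 and -0.30 without replicate 1. It was above Notch3 in every library. Dlk1, an atypical ligand, had 5 to 11 counts per library (log2 fold change -0.30, SE 0.62). It was -0.43 when NDD replicate 2 was left out, -0.17 for NDD replicate 1 and -0.62 for WT replicate 3, and it did not pass the filter without WT replicate 1 or 2. Dll3, the remaining Delta-like gene, had 1 to 5 counts.

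The sugar transferases that act with Fringe on the EGF repeats had a median log2 fold change of -0.09 over 8 tested genes, and 0 of them had an unadjusted p under 0.05. B4galt1, the most abundant, adds galactose to the Fringe product and differed by 0.22 on the log2 scale (SE 0.13, edgeR adjusted p 0.509), or by 0.085 without NDD replicate 2 and 0.34 without NDD replicate 1. Kdelc1, which glucosylates EGF repeats, was at -0.39 (SE 0.19, edgeR adjusted p 0.470), and at -0.36 without NDD replicate 2. Xxylt1, which adds a xylose to the xylose that already extends the glucose placed by Poglut1, was at -0.35 (SE 0.20, edgeR adjusted p 0.495). It was at -0.07 without NDD replicate 2 and -0.68 without NDD replicate 1. Genes of ligand and receptor endocytosis had a median of -0.11 over 13 tested genes, again with 0 at an unadjusted p under 0.05. Epn1, an endocytic adaptor in ligand-bearing cells, led them in abundance (log2 fold change 0.05, SE 0.15, and 0.06 without NDD replicate 2). Its value was 0.11 without WT replicate 1 or 2 and turned to -0.06 without WT replicate 3. Neurl1a, a ubiquitin ligase of ligands, had 6 and 31 counts in NDD and 26, 53 and 139 counts in WT, so the groups overlapped (log2 fold change -1.91, SE 0.92, edgeR adjusted p 0.469). Leaving out NDD replicate 2 gave -3.58, NDD replicate 1 gave -1.16 and WT replicate 3 gave -1.11. Dtx2, a Deltex family ubiquitin ligase, was at -0.38 (SE 0.19, edgeR adjusted p 0.475), and at -0.24 without NDD replicate 2. The median of the sugar transferases ranged from -0.17 without NDD replicate 1 to 0.0078 without NDD replicate 2, and that of endocytosis lay between -0.14 (NDD replicate 1 left out) and -0.0081 (WT replicate 2 left out).

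The enzymes that cleave the receptors had a median log2 fold change of 0.0052 over 10 genes, with an unadjusted p under 0.05 for Ncstn below WT and Aph1b above WT, both subunits of gamma-secretase. Ncstn averaged 162 ± 1.97 CPM in the mutants (SD, n = 2) and 201 ± 10.7 CPM in the controls (SD, n = 3), or -0.31 on the log2 scale (SE 0.12, edgeR adjusted p 0.437) with or without NDD replicate 2. Aph1b differed by 0.64 on that scale (SE 0.23, edgeR adjusted p 0.437) and by 0.63 without NDD replicate 2, with reads that its close copy Aph1c may share. Psenen, another subunit and the most abundant gene of the list, was at -0.36 (SE 0.15, edgeR adjusted p 0.447), and at -0.20 without NDD replicate 2. In the nuclear complex the median was -0.0148 over 14 genes, and only Maml3, a coactivator, had an unadjusted p under 0.05 (log2 fold change 0.40, SE 0.14, edgeR adjusted p 0.437, and 0.41 without NDD replicate 2). Snw1, the most abundant member, was at -0.0187 (SE 0.12), at 0.0092 without NDD replicate 2 and at 0.043 without WT replicate 3. Of 13 Notch targets, which include Notch3, 6 were tested, 3 with a fold change above 0 and 3 below, with a median of -0.10. Above 0 were Hes1 (0.44, and 0.094 without NDD replicate 2), Sox9 (0.29 and 0.55) and Nrarp (0.07 and -0.07). Without NDD replicate 1 they were at 0.72, -0.012 and 0.20, so the direction of Sox9 also turned with a single library. Below 0 were Notch3, Ccnd1 and Myc. Myc was at -0.27, at 0.0076 without NDD replicate 2 and at -0.60 without NDD replicate 1. These genes are named to complete the list. Ccnd1, a G1 cyclin and the most abundant of the 6 targets, was the only target with an unadjusted p under 0.05 (log2 fold change -0.75, SE 0.29, edgeR adjusted p 0.437). It was -0.52 without NDD replicate 2 and -0.45 without WT replicate 3. With 1 library left out, the median of the cleavage list ranged from -0.04 (NDD replicate 2) to 0.039 (NDD replicate 1) and that of the nuclear complex from -0.06 (NDD replicate 1) to 0.017 (WT replicate 3). The median of the targets ranged from -0.26 (NDD replicate 1) to -0.03 (NDD replicate 2).

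**Figure D4:**
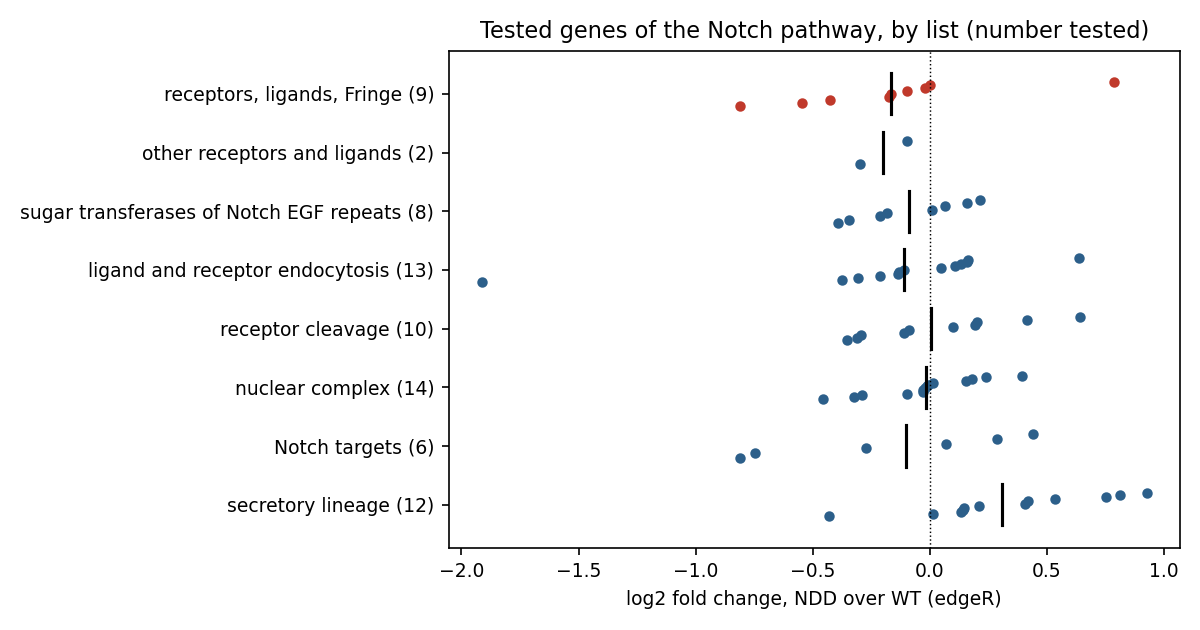
Log2 fold change of NDD over WT from edgeR for each tested gene, by list, with the median of each list as a black line and the number tested in brackets. Most lists centre near 0, with medians from -0.20 to 0.0052, and the secretory list has a median of 0.31, which was -0.04 without NDD replicate 2.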

How the data were processed

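Poly(A) RNA of 5 spheroid cultures was sequenced from stranded libraries, per the labels' protocols. The submitters' processing notes name the build mm10 and the tools Bowtie2 and RSEM, with versions and gene annotation not given in the sources used here. The authors deposited counts per gene as whole numbers, taken here to be rounded estimated counts without normalization because the notes name RSEM (its role is not stated), and TPM scaled by them for length and to a common sum. Such estimates share reads between similar transcripts, so genes with a close copy are uncertain. Gene positions were taken from GENCODE M21, which is on GRCm38 (mm10), and upstream sequences from RefSeq.

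All genes were fitted together with edgeR 4.0.16 (quasi-likelihood, robust, TMM factors, filterByExpr, no covariate), with Benjamini-Hochberg adjustment over 13501 genes and a threshold of 0.05. The standard error was taken as the log2 fold change divided by the root of the F statistic. Shares and totals were compared by exact two-sided permutation (scipy 1.17.1). CPM uses TMM-scaled totals. Alternatives were other factors and filters, DESeq2 1.42.0, limma 3.58.1 (voom, or log2(TPM + 1) and log2(TPM + 0.1) unfiltered for the former or with at least 1 TPM in 2 libraries), a non-robust prior, a prior count of 2 in place of 0.125, a threshold of 0.10, a replicate block and leaving out each library. The code was tested on simulated counts.

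The 10 genes and the lists were chosen with earlier results of these data known, and the lists are hand-assembled. Named from each list were genes past the threshold, the most abundant gene and the 2 genes with the smallest p, of which 1 gene is not reported here. Notch4 and Dll3 were named as family genes, and Atoh1, Muc2, Krt20, Hes1, Sox9, Nrarp and Myc were named after their values were seen. So were Spdef, Gfi1, Neurod1, Fcgbp, Neurog3, Zg16, Chga, Dclk1 and Trpm5. Poglut2 and Poglut3 were searched also under their table symbols Kdelc1 and Kdelc2. All 4 pairs of libraries within a genotype differed by more than sampling noise (chi-square per degree of freedom from 25.7 to 108). No pair was therefore taken as 1 library sequenced again. These values cannot show whether the cultures came from separate mice. Replicate numbers recur in both genotypes, but no label ties them to a litter, batch or day, so libraries were not treated as paired.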

Additional observations from a re-analysis of the deposited data

How the results depend on the processing

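The number of genes called over the whole table, 12, was 58 with no filter on low counts, 4 with at least 10 counts required in every library, 357 with DESeq2, 24 with limma-voom, 33 at an adjusted p under 0.10, and 0 to 1207 when 1 library was left out. The 0 came without WT replicate 1, where 1211 genes had an unadjusted p under 0.05 in edgeR and DESeq2 was not run, and the 1207 without NDD replicate 1. The cause was not tested. With the replicate block it was 33. Libraries with the same number deviated from the mean of their genotype with correlations of 0.020 and 0.28. Pairs with different numbers across genotypes were at -0.28 to 0.25. The deviations of the 2 NDD libraries mirror each other (correlation -1), so these values are not separate. The number called among the receptors, ligands and Fringe enzymes, 0, was 0 under every alternative except that it was 1 (Lfng) without NDD replicate 1. Their median log2 fold change of -0.17 ranged from -0.18 to -0.14 when 1 library was left out. The gene at the median changed between these fits, and was Notch1, Notch2, Rfng or Dll4. Between the WT libraries alone, the median deviation of these genes from their WT means had an SD of 0.135. With no filter Mfng entered the test and was not called.

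Of 153 alternative fold changes of single genes, 136 kept their direction and side of the threshold and 16 changed direction, in Dll4, Jag1, Jag2 and Rfng. Dll4 was at 0.0052 under upper-quartile factors. Jag1 was at -0.0033 with no filter, at -0.0043 on log2(TPM + 1) with or without a filter, at -0.0015 on log2(TPM + 0.1) and at -0.026 with the replicate block, under which Jag2 was at 0.061. Leaving out 1 library gave -0.40 to 0.29 for Dll4, -0.15 to 0.22 for Jag1, -0.30 to 0.084 for Jag2, -0.41 to 0.040 for Rfng and -0.85 to -0.29 for Lfng. It gave, in percentage points of NDD minus WT, -7.54 to 0.888 for the share of Notch2, -2.504 to 0.137 for Dll4, -1.95 to 2.12 for Jag1 and -0.215 to 0.130 for Mfng, and -3.21 to 4.12 TPM for the ligand total. Shares and totals from CPM in place of TPM, and totals from rescaled TPM, kept their direction. With 2 libraries against 3, the two-sided exact tests, which double the smaller one-sided p, cannot go below 0.2, and 2 to 6 counts limit Mfng.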

Other observations

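The ratio of count to TPM, which follows the transcript length that the authors' quantification used, was compared between libraries after scaling by its median over 6204 genes with over 500 counts in every library. For the receptors, ligands and Fringe enzymes, its highest value over its lowest lay between 1.001 (Dll1) and 1.02 (Mfng), against a median of 1.01 over those 6204 genes. For Notch4 it was 1.11, with the highest ratio in WT replicate 1 and the lowest in NDD replicate 2, so the deposited values of Notch4 rest on a transcript length that differed between libraries.

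Among the markers of other cell types, Pdgfrb, Vwf, Vim and Tagln are named here because of their values. Pdgfrb, a receptor of pericytes and fibroblasts, was at 2.98 and 8.17 TPM in NDD and at 2.12, 1.51 and 1.09 TPM in WT. Vwf, an endothelial clotting factor, was at 0.80 and 2.86 TPM in NDD and at 0.63, 0.96 and 1.11 TPM in WT, so its groups overlapped. NDD replicate 2 was the highest library for both, while Vim, the only fibroblast marker above 1 TPM in any library, was at 0.75 and 0.57 TPM in NDD and at 1.90, 1.32 and 0.60 TPM in WT. The fibroblast markers summed to 1.0 and 0.74 TPM in NDD and to 2.21, 1.56 and 0.78 TPM in WT. Tagln, the other smooth muscle and pericyte marker above 1 TPM in any library, was at 3.17 and 4.76 TPM in NDD. In WT it was at 2.73, 3.16 and 2.29 TPM, and NDD replicate 2 was again the highest library. Of the other markers of pericytes and endothelium, Rgs5, Cspg4 and Cdh5 stayed at 4 counts or fewer in every library.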
